A study of Mus musculus with 2 samples.

Results

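The miR-26 family of the mouse comprises 3 hairpin genes, Mir26b, Mir26a-1 and Mir26a-2, and their levels in the newborn midbrain are described here. They were taken by gene symbol from the deposited tables, as 3 of the 1973 microRNA genes listed there, and all 3 were found. Small RNA of under 30 bases was sequenced on postnatal day 0 from 2 B6NCrl mice, pup 3 and pup 1, with total RNA of 1 midbrain per library. The pups form 1 group with no genetic change or treatment named in the labels, so there is no comparison of conditions. The labels name separate pups but give both the same donor identifier, and sex was not collected.

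A microRNA is cut from a hairpin as a short duplex, and either arm, 5p or 3p, can be loaded into an Argonaute protein to repress messenger RNAs that pair with its seed, bases 2 to 8. The miR-26 hairpins lie in introns of genes for small phosphatases that remove phosphate from the tail of RNA polymerase II. These phosphatases, Ctdsp1, Ctdsp2 and Ctdspl, act with the repressor REST to keep neuronal genes silent outside neurons. In zebrafish, miR-26b represses its own host ctdsp2 during neurogenesis. A known mammalian target of the family is Ezh2, a histone methyltransferase.

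The mature sequences are shown first, because what a count can mean depends on them. They are from RefSeq on GRCm38.p6, written 5′ to 3′ with the seed in capitals.
miR-26b-5p: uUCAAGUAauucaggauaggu
miR-26a-5p: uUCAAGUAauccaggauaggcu
miR-26b-3p: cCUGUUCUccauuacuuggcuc
miR-26a-1-3p: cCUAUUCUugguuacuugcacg
miR-26a-2-3p: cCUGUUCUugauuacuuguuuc

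Mir26a-1 and Mir26a-2 encode the same 22-base miR-26a-5p. Read without gaps from base 1, miR-26b-5p differs from it by C11U and C21U, miR-26a-5p being given first, and ends 1 base earlier at 21 bases. All 3 hairpins therefore share the seed UCAAGUA on the 5p arm, and no other entry of the RefSeq table has it. The 3p arms differ more. Those of Mir26a-1 and Mir26a-2 differ at 6 of 22 bases, by A4G, G11A, C19U, A20U, C21U and G22C, with miR-26a-1-3p first. The substitution A4G lies in the seed, so miR-26a-1-3p has a seed found in no other entry. The 3p seed CUGUUCU of Mir26b and Mir26a-2 is also carried by Mir6932 and Mir7039. Those genes had at most 3 counts in either library.

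The hairpins show how far the identity of the copies extends. Capitals mark the 5p and 3p mature sequences.
Mir26b: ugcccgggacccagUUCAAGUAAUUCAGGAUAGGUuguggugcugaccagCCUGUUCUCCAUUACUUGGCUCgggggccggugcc
Mir26a-1: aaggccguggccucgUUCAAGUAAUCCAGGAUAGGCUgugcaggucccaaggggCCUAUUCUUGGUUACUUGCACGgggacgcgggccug
Mir26a-2: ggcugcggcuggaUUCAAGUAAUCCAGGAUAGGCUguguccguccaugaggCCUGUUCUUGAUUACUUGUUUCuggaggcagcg
Mir26a-1 and Mir26a-2 share a run of 25 bases, uucaaguaauccaggauaggcugug, which is the whole of miR-26a-5p with 3 further bases at its 3′ end and none at its 5′ end. A read lying within that run cannot be placed at either locus. Reads that map to several places are listed apart from the genes in these tables and were taken to enter none. Mir26b shares at most 11 bases with any other hairpin of the RefSeq table on either strand. The counts of Mir26b can thus hold reads of either arm, whereas those of Mir26a-1 and Mir26a-2 can hold the 3p arms and reads that reach outside the shared run, and not a read of miR-26a-5p that matches both loci equally well. How many reads of miR-26a-5p were sequenced cannot be told from the tables.

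By position on GRCm38 (GENCODE M21), Mir26b (ENSMUSG00000065468.1) lies at chr1:74394310-74394394, in intron 4 of 6 of the Ctdsp1 transcript Ctdsp1-201, 2801 bases from its start. That intron is 564 bases long, and the next exon begins 245 bases after the hairpin. Mir26a-1 (ENSMUSG00000065513.1) lies at chr9:119031796-119031885, in intron 5 of 7 of Ctdspl-201, 105343 bases from the transcript start. Mir26a-2 (ENSMUSG00000065430.1) lies at chr10:126995530-126995613, in intron 5 of 7 of Ctdsp2-202, 16813 bases from the start. Its last base is also the first base of a pair of shorter Ctdsp2 transcripts, Ctdsp2-201 and Ctdsp2-203, so it is not purely intronic. All 3 hairpins lie on the + strand, as do their hosts. The hosts differ widely in span, from 5777 bases for Ctdsp1-201 to 21253 bases for Ctdsp2-202 and 117546 bases for Ctdspl-201, but each hairpin lies in the fourth or the fifth intron.

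**Figure D1:**
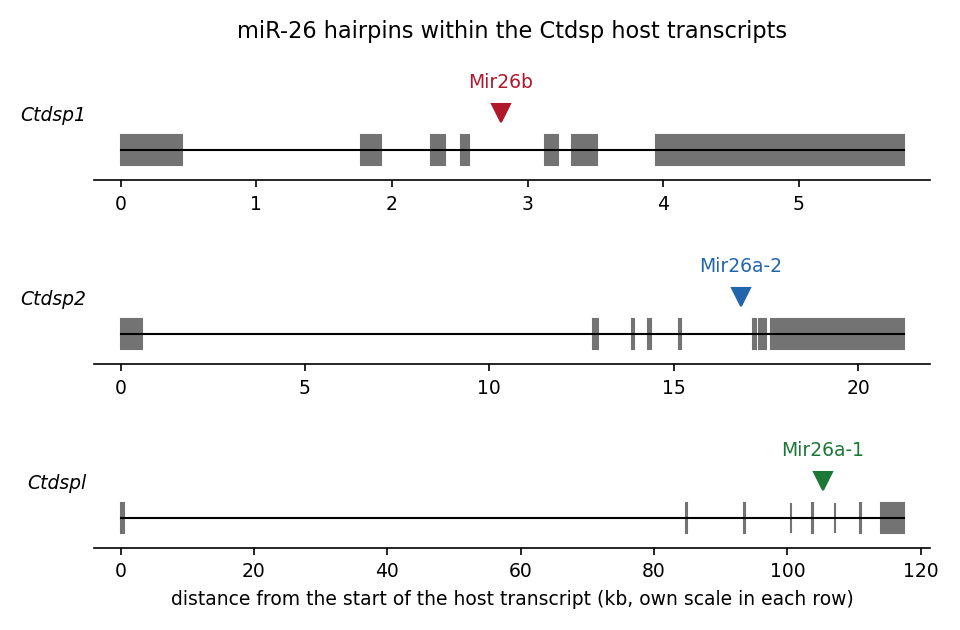
Position of each miR-26 hairpin (triangle) in the main transcript of its host, with exons as grey boxes and introns as lines. The x axis is the distance from the transcript start in kb, on its own scale in each row. Mir26b lies 2.80 kb, Mir26a-2 16.8 kb and Mir26a-1 105 kb from the start, each within an intron.

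The hairpins are alike in size and predicted stability. They are 85 bases (Mir26b), 84 bases (Mir26a-2) and 90 bases (Mir26a-1) long. Their GC contents are 58.8%, 53.6% and 60.0%, and their predicted minimum folding energies (RNAfold) are -43.5, -44.5 and -49.4 kcal/mol, in the same order.

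A level in CPM is the own-strand count of a gene per 1000000 own-strand counts on all genes. By these counts, which leave out reads that map to several places, Mir26b was among the most abundant genes of the midbrain libraries. It had 51752 counts in pup 3 and 31745 counts in pup 1, or 16196 and 13583 CPM. Its mean of 14889.7 ± 1848 CPM (SD, n = 2) ranked 14th of the 1973 genes, 12th in pup 3 and 14th in pup 1. By itself it took 1.62% of the gene counts of pup 3 and 1.36% of those of pup 1. Such ranks and shares describe these counts and not the microRNAs of the tissue.

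The miR-26a hairpins were counted at far lower levels. Mir26a-2 had 111 counts in pup 3 and 76 in pup 1, or 34.7 and 32.5 CPM, with a mean of 33.6 ± 1.57 CPM (n = 2) and rank 271. Mir26a-1 had 48 counts in pup 3 and 30 in pup 1, or 15.02 and 12.8 CPM, with a mean of 13.9 ± 1.55 CPM (n = 2) and rank 298. The 3 levels did not overlap between hairpins in either pup. All 3 genes reached 10 counts in both libraries and are called detected, as are 359 genes of the tables in all.

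**Figure D2:**
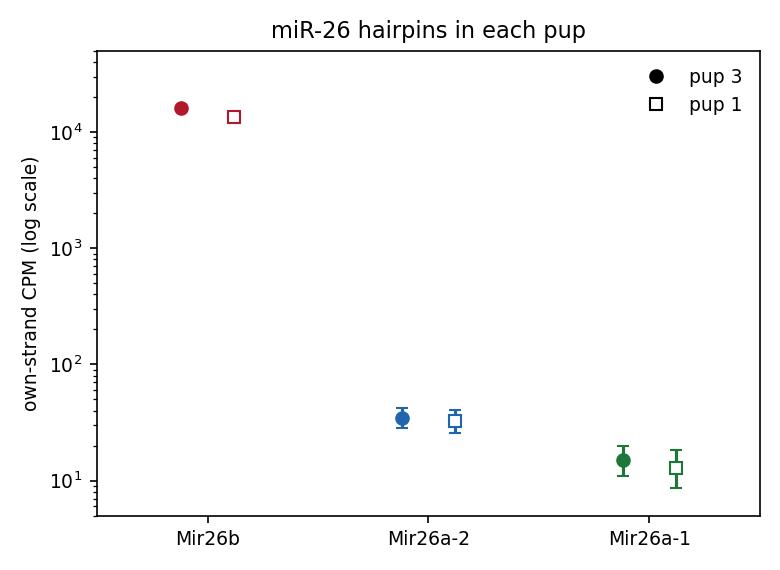
Own-strand CPM (y axis, log scale) of each miR-26 hairpin in pup 3 (filled circles) and pup 1 (open squares). Bars are exact 95% binomial intervals and cover counting error only. Mir26b stands at 16196 and 13583 CPM, and the miR-26a hairpins stand between 12.8 and 34.7 CPM.

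Within each library, the order Mir26b, Mir26a-2, Mir26a-1 was larger than the counting error. Mir26b had 466 times the counts of Mir26a-2 in pup 3 (95% interval 387 to 567) and 418 times in pup 1 (334 to 530.3). Against Mir26a-1 it had 1078 times the counts in pup 3 (813 to 1462) and 1058 times in pup 1 (741 to 1569). Mir26a-2 had 2.31 times the counts of Mir26a-1 in pup 3 (1.63 to 3.32) and 2.53 times in pup 1 (1.64 to 4.01). These are ratios of counts as deposited, which leave out reads of the shared miR-26a-5p that match both loci. They do not give the ratio of miR-26b to miR-26a in the tissue. Per 100 bases of hairpin the mean levels were 17517 CPM for Mir26b, 40.0 CPM for Mir26a-2 and 15.5 CPM for Mir26a-1, the same order.

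Together the family held 51911 counts in pup 3 and 31851 in pup 1. That is 1.62% of the gene counts of pup 3 (exact 95% interval 1.61 to 1.64) and 1.36% of those of pup 1 (1.35 to 1.38), with a mean of 1.49% ± 0.185 (n = 2). Mir26b made up 99.69% of the family counts in pup 3 (99.64 to 99.74) and 99.67% in pup 1 (99.60 to 99.73). The division of these counts within the family thus differed between the pups by less than its counting error. The counts leave out reads of miR-26a-5p that match both loci and do not give the division in the tissue. Mir26a-2 made up 0.214% and 0.239% of the family counts in pup 3 and pup 1, and Mir26a-1 made up 0.0925% and 0.0942%.

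No read was counted on the strand opposite to any of the 3 hairpins in either library. The either-strand counts of the family therefore equal its own-strand counts. Mir546, a hairpin annotated within the span of Ctdsp2 and chosen for mention with its counts known, was counted 3 times in pup 3 and 0 times in pup 1, where a count of 0 allows up to 1.28 CPM.

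The genes nearest to each hairpin in level, by distance over log2(CPM + 1) in the 2 libraries, place the family among the other microRNAs. For Mir26b these were Mir181c at 14955 ± 813 CPM, Mir135b at 13579 ± 186 CPM and Mir127, from the imprinted Dlk1-Dio3 region, at 11949 ± 1.38 CPM (n = 2 each). Mir26b and Mir181c changed places between the pups, with Mir26b higher in pup 3 (16196 against 15530 CPM) and Mir181c higher in pup 1 (14381 against 13583 CPM). The gap between Mir26b and Mir135b, its neighbour below, was smaller than the SD of Mir26b.

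For Mir26a-2 the nearest genes were Mir574 at 35.9 ± 2.503 CPM, and Mir218-1, within Slit2, and Mir34b, both at 29.7 ± 3.21 CPM. For Mir26a-1 they were Mir190b at 13.6 ± 1.10 CPM, Mir5113 at 14.4 ± 0.417 CPM and Mir208b, a microRNA of striated muscle, at 14.0 ± 4.08 CPM. Mir574 and Mir26a-2 changed places between the pups. The levels of Mir26a-1 and its 3 neighbours lay within 1 SD of Mir26a-1 of each other. A likeness over 2 libraries says only that the levels are close.

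**Figure D3:**
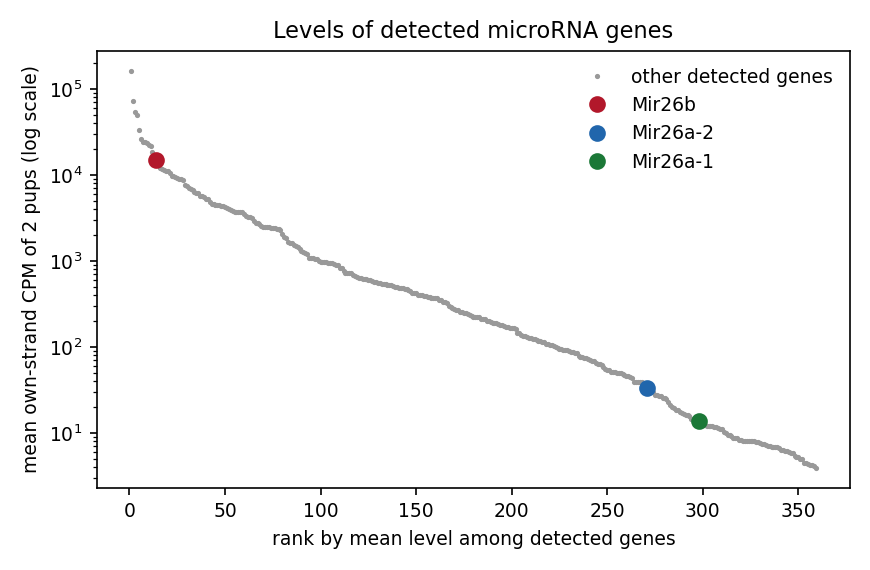
Mean own-strand CPM of the 2 pups (y axis, log scale) of the 359 detected genes in order of level (x axis). Mir26b stands at rank 14, near the top of the curve, and Mir26a-2 and Mir26a-1 stand at ranks 271 and 298, toward its lower end.

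Reads that map to several places were abundant. They came to 2937457 in pup 3 and 2111487 in pup 1, which is 39.8% and 38.7% of all reads, and exceeded the counts of Mir26b by 56.8 and 66.5 times. The part of these reads that is miR-26a-5p is not known. The part of their loss in the low counts of Mir26a-1 and Mir26a-2 was not tested.

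Levels of genes with and without a shared mature sequence are given as a description, and the effect of read loss on them was not tested. A gene is placed in the sharing class if either arm is shared. The medians of detected genes leave out hairpins with few counts left. Of the 858 genes matched to RefSeq sequences, 83 share a mature sequence with another locus, as Mir26a-1 and Mir26a-2 do, and 43 of these (51.8%) were detected. Of the 775 that share none, 266 (34.3%) were detected. The median level of the 43 was 332 CPM, against 225 CPM for the 266. Of the 43 detected genes, 10 (23.3%) had a level below that of Mir26a-2, Mir26a-1 among them, as did 64 of the 266 (24.1%). In pup 3 alone the medians of detected genes stood the other way round, at 189 and 226 CPM, whereas in pup 1 they were 356 and 235 CPM. Over all measured genes the median was 6.96 CPM for the 83 and 0.741 CPM for the 775.

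Among the 34 mature sequences shared by exactly a pair of measured hairpins, the stretch of identity beyond the 3′ end varied. A pair that shares both arms enters once for each arm. It was 3 bases for Mir26a-1 and Mir26a-2, which summed to 47.6 CPM. Mir128-1 and Mir128-2, neuronal hairpins within R3hdm1 and Arpp21, share no base beyond miR-128-3p and summed to 10196 CPM. Mir16-1 and Mir16-2 share 1 further base and summed to 2861 CPM. Mir181a-1 and Mir181a-2 share 4 further bases and summed to 4443 CPM, and Mir29b-1 and Mir29b-2 share none and summed to 18.2 CPM. A further 8 of the 34 sequences come from hairpins identical over their whole length, some of them entered for both arms. All of these hairpins had 0 counts in both libraries. The lengths and levels are given as a description only.

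The miR-26 family was then set beside other seed families that hold such a pair together with a hairpin whose mature sequence is its own. There were 12 such pairs with at least 1 copy detected. Both copies were detected in 11 of them, and Mir19b-2 of the miR-19b pair was not. In each of them the most abundant hairpin with its own mature sequence exceeded the sum of the pair, although that hairpin was chosen as the highest of up to 6. The pair sums also leave out reads of the shared mature sequence that match both loci, so unlike counts are set side by side. The pairs are not all separate families, since Mir181c served for both miR-181a and miR-181b, and Mirlet7c-2 belongs to both let-7 pairs. The miR-26 family had the largest difference of the 12, with Mir26b 325 times the sum of Mir26a-1 and Mir26a-2 in pup 3 and 299 times in pup 1. It was followed by Mir30e against the Mir30c pair, 225 times in pup 3 and 187 times in pup 1.

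The closest case in arrangement was that of the pantothenate kinase genes, whose introns hold Mir103-1 (Pank3), Mir103-2 (Pank2) and Mir107 (Pank1). Mir103-1 and Mir103-2 share miR-103-3p, and Mir107 alone has its own mature sequence with the same seed. Mir107 reached 3908 CPM in pup 3 and, in pup 1, 3509.9 CPM. Mir103-2 had 68.2 and 57.3 CPM and Mir103-1 4.38 and 4.28 CPM in pup 3 and pup 1. Mir107 thus exceeded the sum of the pair by 53.8 times in pup 3 and 57.0 times in pup 1, less than the 325 and 299 times of Mir26b. These sums too leave out reads that match both loci.

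**Figure D4:**
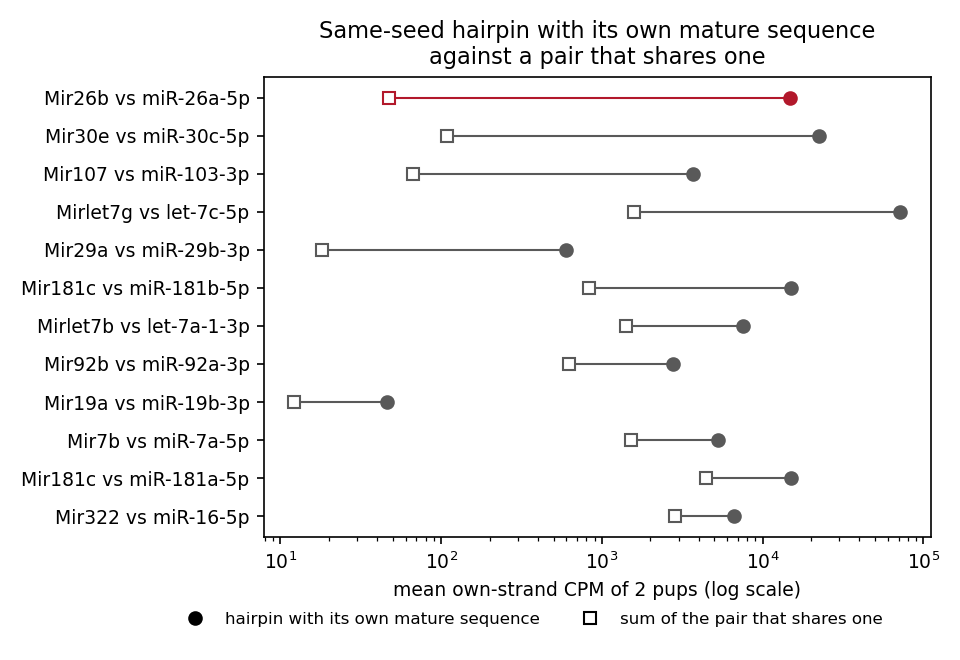
Mean own-strand CPM of the 2 pups (x axis, log scale) for the most abundant hairpin with its own mature sequence (filled circles) and for the sum of a same-seed pair that shares one (open squares), in 12 pairs. The miR-26 row, in red, has the widest gap, with Mir26b at 14889.7 CPM and the sum of Mir26a-1 and Mir26a-2 at 47.6 CPM. The sums leave out reads of the shared mature sequence that match both loci.

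A list of 15 hairpins from other families with copies at several loci or in related hosts was set beside the miR-26 hairpins. All 15 were detected, against 359 of all 1973 genes. For 11 of the 15 a protein-coding host was named in the list, and none was named for Mir15a, Mir15b, Mir16-1 and Mir16-2. The median level was 1290.5 CPM over the 15 and 147 CPM over the 11, against 225 CPM over all detected genes. Mir26b exceeded 14 of them and was below Mir30e, within Nfyc, at 22260.0 ± 1504 CPM (n = 2). Mir153, within Ptprn2, stood at 9302 ± 849 CPM. Mir26a-2 and Mir26a-1 were below every hairpin of the list except Mir218-1 at 29.7 ± 3.21 CPM, below Mir26a-2 only, and Mir103-1 at 4.33 ± 0.0726 CPM.

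The Ctdsp phosphatases act with REST, and microRNAs that REST silences or that repress members of this circuit form a list of 14 hairpins. Of these 13 are in the tables and 10 were detected, against 359 of all 1973 genes. Mir137, a regulator of neuronal differentiation, led at 24297 ± 3132 CPM, above Mir26b, and Mir132, induced by neuronal activity, followed at 2378 ± 64.1 CPM. Mir9-3 stood at 389 ± 10.1 CPM. The hairpins of miR-124, which represses Ctdsp1 in the developing chick spinal cord, stood at 11.6 CPM (Mir124a-1), 3.26 CPM (Mir124a-2) and 2.17 CPM (Mir124a-3), all below Mir26a-1. They too encode the same mature microRNA, so these are no measure of miR-124.

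Of 9 marker hairpins of neurons, 8 are in the tables and 5 were detected, against 359 of all 1973 genes. The median over the 8 was 200.1 CPM. Mir137, Mir153 and Mir128-1 stood at 7512 to 26512 CPM in the 2 libraries, Mir9-3 and Mir124a-1 at the levels above, and Mir124a-2, Mir124a-3 and Mir9-2 were not detected. Of 3 muscle hairpins, Mir206 had 63 counts in pup 3 and 46 in pup 1, or 19.7 CPM in each, and Mir1a-1 and Mir133a-1 had 0 counts. As for miR-124, a low count or 0 counts of a hairpin is no measure of its mature microRNA where other loci encode the same one. That limit applies to the miR-9 hairpins and to Mir1a-1 and Mir133a-1 if their copies do so. Mir126a of endothelium reached 30095 CPM in pup 3, against 36188 CPM in pup 1. The epithelial hairpins Mir200b, Mir200c and Mir141 summed to 261 CPM in pup 3, against 39.4 CPM in pup 1, and the red cell hairpins Mir451a and Mir144 to 60.1 and 107 CPM. The red cell hairpins differed in opposite directions. Mir451a was lower in pup 3 than in pup 1 (31.0 against 86.4 CPM), whereas Mir144 was higher (29.1 against 20.1 CPM). The cells that the miR-26 counts came from cannot be told apart in whole tissue, nor can fewer cells and less RNA per cell.

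Between the pups, the ratio of pup 3 to pup 1 was taken after TMM scaling, which sets the bulk of genes to an equal level. Each ratio compares 2 libraries and has no replicate check. Among the 286 genes with a mean of at least 50 counts, 19 (6.64%) lay beyond 1.5-fold, 6 higher and 13 lower in pup 3. Of the 3 miR-26 hairpins, Mir26b and Mir26a-2 were past that minimum, and neither was among the 19. Mir26b had a log2 ratio of 0.20, or 1.15-fold, with a counting interval of 1.13 to 1.17-fold. That interval leaves out equality, as those of 172 of the 286 genes did (60.1%). A ratio at least as far from equality was found in 106 of the 286 genes (37.1%), so the difference in Mir26b was not unusual for these libraries.

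Mir26a-2 had a log2 ratio of 0.04, or 1.030-fold (0.763 to 1.40-fold). Mir26a-1, with a mean of 39 counts, was under the minimum, and its log2 ratio of 0.17 had an interval of 0.701 to 1.85-fold. At this depth a difference between the pups was not detectable for either miR-26a hairpin. The interval of Mir26a-1 still allows a difference beyond 1.5-fold in pup 3, and that of Mir26a-2 does not. The median absolute log2 ratio over the 286 genes was 0.15. The spread beyond counting error, which edgeR gives as a biological coefficient of variation, was 0.171. These libraries do not separate biological from technical spread. None of the 14 hairpins of the list with copies or related hosts and none of the 7 REST circuit hairpins past the minimum lay beyond 1.5-fold. Their median log2 ratios were 0.02 and 0.18, and that of all 286 genes was 0.01.

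**Figure D5:**
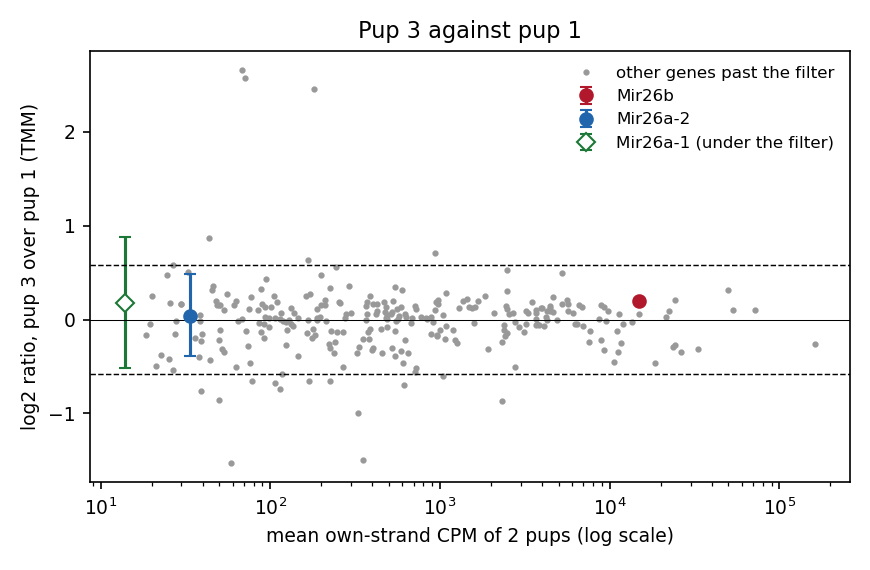
Log2 ratio of pup 3 over pup 1 (y axis, TMM scaled) against mean own-strand CPM (x axis, log scale). Grey points are the other genes with a mean of at least 50 counts, bars on the miR-26 hairpins are 95% counting intervals, and dashed lines mark 1.5-fold. Mir26b (0.20), Mir26a-2 (0.04) and Mir26a-1 (0.17, open diamond, under the count minimum) lie between the dashed lines, and the interval of Mir26a-1 crosses the upper one.

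Since miR-26b is known in zebrafish to repress the transcript of a host gene, the 3′ UTRs of the mouse hosts were searched for TACTTGA, the reverse complement of the 5p seed, on the messenger strand only. The longest principal transcript of each gene was used. Ctdsp2-202 held 1 match in 3483 bases, at chr10:126997566-126997572 on the + strand, shown here with the match in capitals because it lies in the transcript that carries Mir26a-2.
Ctdsp2 site: gtgttgctctTACTTGAttt
No match was found in the 1701 bases of Ctdsp1-201 or the 3349 bases of Ctdspl-201. Of 1715 genes whose 3′ UTR was within 20% of the length of that of Ctdsp2, 22.7% held the motif, and of all 20822 genes 9.09% did. The match is a description of the sequence, and no messenger RNA was measured.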

How the data were processed

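The deposited tables hold raw counts per gene in 3 columns, for either strand, the own strand and the opposite strand. Per the deposited descriptions, the authors made these counts from alignments to mm10 with GENCODE M4. Which aligner and counting program they used is not given in the sources used here. The 4 rows of each table that name no gene (56.7% of reads in pup 3 and 57.2% in pup 1) stayed out of totals. Genes and these rows add up to all 7382778 and 5461825 reads in each column, so a read mapped to several places is in no gene. Own-strand counts on genes came to 3195277 and 2337113.

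Identifiers were matched without versions to GENCODE M21 on GRCm38 (1894 of 1973). CPM, exact (Clopper-Pearson) 95% intervals and shares were computed with Python 3.11.15 and scipy 1.17.1. Intervals and floors (3 counts) cover counting error only, since the reads carry no molecular identifiers used here. Ratios used TMM scaling in edgeR 4.0.16 with a prior count of 0.5 and were tested on simulated data first. The simulated counts carried counting error and set fold changes only, so that test does not cover further spread between libraries. DESeq2 1.42.0 size factors were an alternative. Folding used RNAfold 2.7.2. With 1 group no p-value was computed, and the SD over 2 pups may be partly technical. Named genes were the members, the 3 genes nearest to each in level, the lists, and same-seed hairpins. The members and lists were chosen with earlier results of these data known. The same-seed pairs and the seed match search were added after seeing the data.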

Additional observations from a re-analysis of the deposited data

How the results depend on the processing

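With either-strand counts, each level, the family share and the part held by Mir26b moved by less than the SD over the pups. Scaled to all reads of a library, the levels were 6411 (Mir26b), 14.5 (Mir26a-2) and 5.997 (Mir26a-1) per 1000000 reads and the family share 0.643%. Without the most abundant gene in the total they were 17769, 40.2 and 16.6 CPM and 1.78%. Each pup alone gave 13583 to 16196 CPM for Mir26b, 32.5 to 34.7 CPM for Mir26a-2 and 12.8 to 15.02 CPM for Mir26a-1. In single pups the family share was 1.36% to 1.62%. The part of the deposited family counts held by Mir26b, which leave out shared miR-26a-5p reads, was 99.67% to 99.69%. The log2 ratio of Mir26b was 0.25 with plain CPM, outside its counting interval. The other 6 settings left it between 0.19 and 0.21, and no log2 ratio of a miR-26 hairpin changed sign or passed 1.5-fold. With a mean of at least 10 counts, 45 genes lay beyond 1.5-fold in place of 19, and 20 did under each other scaling. The median of detected hairpins with a shared mature sequence, 332 CPM, was 189 CPM when a shared run of at least 20 bases defined the class, 91.7 CPM with at least 1 count in each library, and 189 to 356 CPM in single pups. For hairpins with none it was 225 CPM, 227 CPM, 20.1 CPM and 226 to 235 CPM. No paired analysis was possible because the labels give 1 group. Depth limits the miR-26a hairpins most, with at most 111 counts in a library.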
